A study of Mus musculus with 2 samples.

Results

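The enzymes and transporters of glycolysis, the citrate cycle and glutamine metabolism were examined in single-cell RNA profiles of mouse prostate tissue with prostatic intraepithelial neoplasia (PIN) and prostatic adenocarcinoma (PCa). They were 41 genes of the 19320 in the table, chosen by name and function. They comprised 15 genes of glucose entry and glycolysis, 4 of lactate handling, 4 of pyruvate dehydrogenase, 14 of the citrate cycle and citrate use and 4 of glutamine and glutamate. All mice had the genotype R26 mTmG/hAR:Osr1 Cre/+. Their Osr1-Cre driver switches on a human androgen receptor transgene (hARtg) and membrane green fluorescent protein (mGFP) in the same cells. Because the driver acts in prostatic progenitors during development, every descendant of a recombined cell carries both. The PIN tissue was from mice of 6 months and the PCa tissue from mice of 12 months, as the study describes them. Each tissue gave 1 library (hARtg-Osr1Cre_PIN and hARtg-Osr1Cre_PCa), no library of mice without the transgene was analysed here, and how many mice were pooled is not given in the sources used here. With 1 library a tissue, the conditions have no replicate check and no test was possible.

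Glycolysis splits glucose into pyruvate, which is either turned into lactate by lactate dehydrogenase or passed by pyruvate dehydrogenase into the citrate cycle of the mitochondria. Normal prostate luminal cells are known for making and secreting citrate, so their citrate cycle is partly cut short at aconitase, and prostate cancer cells are known to oxidise citrate instead. Many steps are run by isozymes encoded by separate genes, such as Hk1 and Hk2 for the first step of glycolysis or Ldha and Ldhb for lactate, and tissues differ in which one they use. Glutamine synthetase, encoded by Glul, joins ammonia to glutamate and is a textbook target of Wnt signalling in the liver cells around the central vein.

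Cell barcodes carried 1 of 2 endings, and neither the labels nor the column names state which tissue an ending marks. The cells are therefore described as barcode set 1, with 6332 cells, and barcode set 2, with 9410 cells, at a median depth of 17235 and 14824.5 UMIs, respectively, and no value below is assigned to PIN or PCa. The cell number of set 1 equals the one the study states for PIN, and that of set 2 is close to the one it states for PCa without equalling it. A set difference cannot be told apart from a difference of library, age or tissue. There were 67 barcodes that occurred in both sets, and these were kept. After doublets were left out, 15412 cells remained. Luminal-like cells numbered 1409 in set 1 (median 29130 UMIs) and 7605 in set 2 (median 16608 UMIs). Basal-like cells numbered 1701 and 361, leukocyte-like cells 1115 and 281, fibroblast-like cells 197 and 361, and endothelium-like cells 40 and 170, respectively. Another 1413 and 272 cells resembled proximal or urethral luminal epithelium. The reporter, read from the feature EGFP, was high (at least 2000 UMIs when scaled to CPM within the cell) in 20.9% of luminal-like cells of set 1 and 97.1% of those of set 2. All 9 luminal markers had UMIs in the luminal-like cells of both sets, as they also did in basal-like cells. They summed to 38373 CPM in set 1 and 18380 CPM in set 2 in luminal-like cells, and to 3749 and 5486 CPM in basal-like cells.

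Luminal-like cells fell into clusters that are called here after one of their leading genes. In set 1, 41.8% of them were in the Tgm4-led and 37.7% in the Msmb-led cluster. In set 2 the Defa22-led (22.5%), Svs5-led (22.2%), Gulo-led (20.8%) and Wnt6-led (18.7%) clusters held most of them. The Defa22-led, Gulo-led and Wnt6-led clusters had 0, 3 and 2 cells in set 1, so that they could be a property of that library as well as a cell type. Of the 9 luminal markers, 4 were seen in 25% or more of cells in the Defa22-led and in the Wnt6-led cluster. The Tgm4-led and Gulo-led clusters showed 7 and the Msmb-led cluster 9. Ldhb was itself among the 10 leading genes of the Gulo-led cluster. The members, the other pathway genes, EGFP and hARtg were kept out of the features used for clustering.

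Levels are in CPM. For each gene, the UMIs of all cells of 1 class in 1 set were added up, divided by the total UMIs of those cells and scaled to a total of 1000000. Of the 41 members, 36 reached 10 CPM over all kept cells and entered the counts of calls; Pfkm, Aldoc, Slc16a3, Pdk1 and Pdk4 did not. A gene was called higher or lower when log2((CPM + 10)/(CPM + 10)) was at least 1 in size, a 2-fold difference with 10 CPM added to both sides. Folds in the text are plain ratios of CPM with 95% intervals that cover counting error only. Summed over the members, the enzymes took 0.531% of the UMIs of luminal-like cells in set 1 and 0.9502% in set 2. Most of that gap was in the glutamine and glutamate genes (0.0464% against 0.266%), glycolysis (0.275% against 0.383%) and lactate genes (0.0506% against 0.126%), while the citrate cycle genes took 0.144% and 0.150%. In basal-like cells all members together took 0.422% and 0.494%. The map of member levels by class shows each of the 41 genes.

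**Figure D1:**
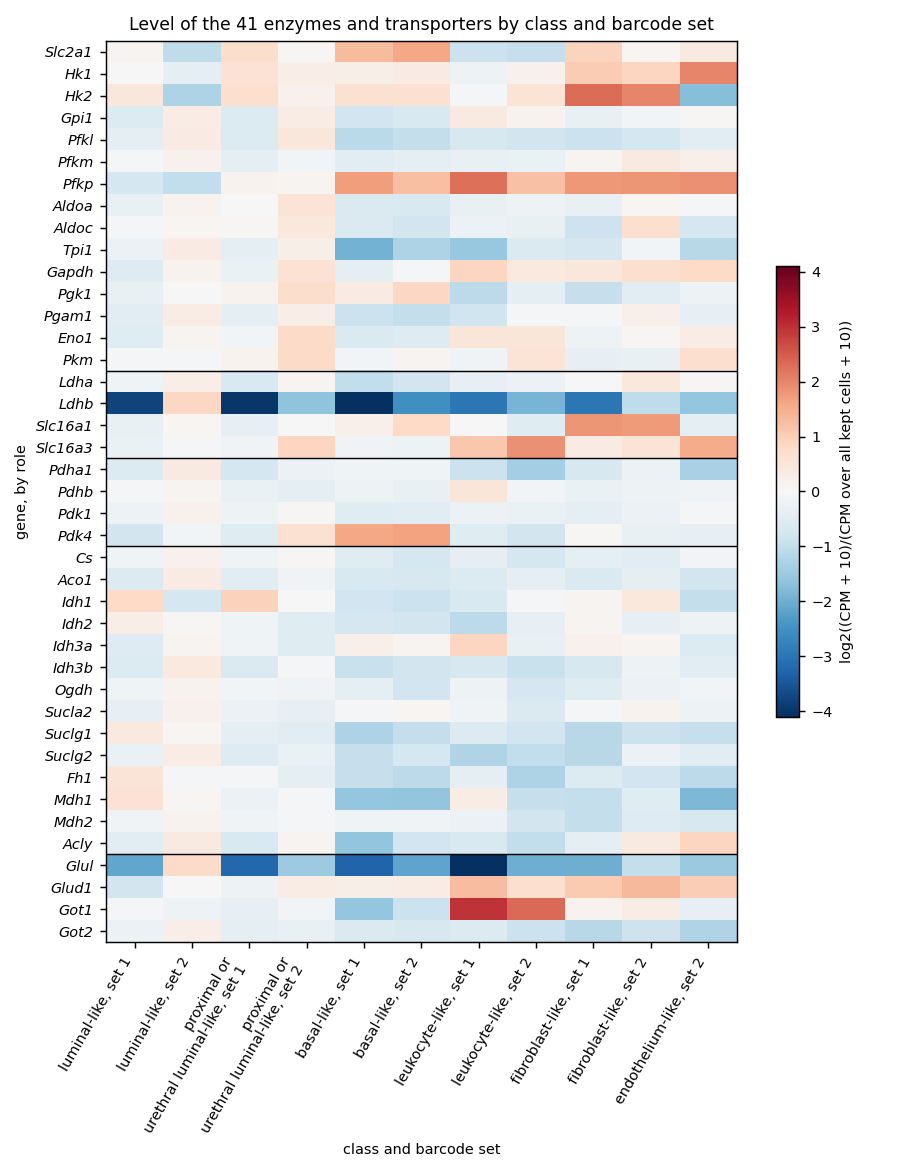
Level of each of the 41 genes (rows, grouped by role) in each cell class and barcode set (columns), as the log2 ratio to its level over all kept cells with 10 CPM added to both. Ldhb and Glul stand out in luminal-like cells of set 2, Pfkp is low in luminal-like cells of both sets, and Got1 is highest in leukocyte-like cells.

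Among the 36 members tested, luminal-like cells of the sets differed most in lactate dehydrogenase B and glutamine synthetase. Ldhb, the isozyme usually linked to the use of lactate, stood at 12.9 CPM in set 1 and 566 CPM in set 2, a ratio of 43.9 (40.5 to 47.7). Glul stood at 312 CPM in set 1 and 2433 CPM in set 2, a ratio of 7.81 (7.68 to 7.94). In the other direction, Hk2, the hexokinase that many tumours raise, was at 43.6 CPM in set 1 and 6.20 CPM in set 2, 7.03-fold lower in set 2 (6.51 to 7.58). Idh1, which makes NADPH outside the mitochondria, was at 40.8 and 7.498 CPM, 5.44-fold lower in set 2 (5.06 to 5.85). The glucose transporter Slc2a1 was at 98.7 and 38.9 CPM, 2.54-fold lower in set 2 (2.44 to 2.64). These 5 genes were 13.9% of the 36 members tested, a share close to the 14.6% of all 7409 tested genes that passed the same limit (5.75% higher and 8.89% lower in set 2). The median log2 ratio was 0.47 over the members and -0.10 over all tested genes.

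The promoters of Glul, Ldhb and Hk2 are printed because these genes led the luminal differences of the tested members in the 2 directions. Each sequence runs from 250 bases before to 50 bases after the gene start in RefSeq's annotation of GRCm38.p6, the assembly of mm10, and is written 5′ to 3′ on the strand of the gene. Capitals mark matches to ACGTG or GCGTG, the cores of hypoxia response elements, on either strand.
Glul (chr1:153899679-153899978, plus strand): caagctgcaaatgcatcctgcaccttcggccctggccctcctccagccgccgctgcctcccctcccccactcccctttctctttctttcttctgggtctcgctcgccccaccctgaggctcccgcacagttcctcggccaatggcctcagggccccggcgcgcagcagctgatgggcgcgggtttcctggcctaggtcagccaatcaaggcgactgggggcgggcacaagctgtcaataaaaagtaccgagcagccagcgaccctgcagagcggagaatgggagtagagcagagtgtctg
Ldhb (chr6:142507908-142508207, minus strand): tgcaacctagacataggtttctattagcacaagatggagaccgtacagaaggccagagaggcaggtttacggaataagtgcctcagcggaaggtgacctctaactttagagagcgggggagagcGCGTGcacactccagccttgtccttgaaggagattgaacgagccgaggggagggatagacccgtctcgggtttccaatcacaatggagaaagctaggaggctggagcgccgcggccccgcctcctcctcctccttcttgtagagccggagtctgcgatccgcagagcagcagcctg
Hk2 (chr6:82774405-82774704, minus strand): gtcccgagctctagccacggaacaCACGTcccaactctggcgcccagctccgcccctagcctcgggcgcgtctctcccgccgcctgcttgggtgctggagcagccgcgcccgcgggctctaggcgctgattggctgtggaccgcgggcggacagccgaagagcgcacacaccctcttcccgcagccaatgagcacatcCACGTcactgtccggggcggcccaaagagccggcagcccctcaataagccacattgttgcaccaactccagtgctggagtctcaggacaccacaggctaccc
The gene bodies lie at chr1:153899929-153909723 for Glul, chr6:142490249-142507957 for Ldhb and chr6:82725025-82774454 for Hk2. The search covered both strands for CTTTGA (the core of TCF/LEF sites), for both hypoxia response cores, for CACGTG (the E-box, which contains the first of these cores) and for TGTTCT (an androgen receptor half-site). None of these words occurred in the Glul window. The Ldhb window held GCGTG once, and the Hk2 window held ACGTG at 2 places, both read on the opposite strand as CACGT and neither part of CACGTG. Over the 58 promoters found for 40 of the members, ACGTG occurred in 41.4% against 19.6% of all 32851 promoters, GCGTG in 60.3% against 32.4%, CACGTG in 10.3% against 7.15%, TGTTCT in 20.7% against 19.0% and CTTTGA in 13.8% against 16.0%. Several genes have more than 1 start and their windows overlap. A match of letters does not show that a factor binds there.

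**Figure D2:**
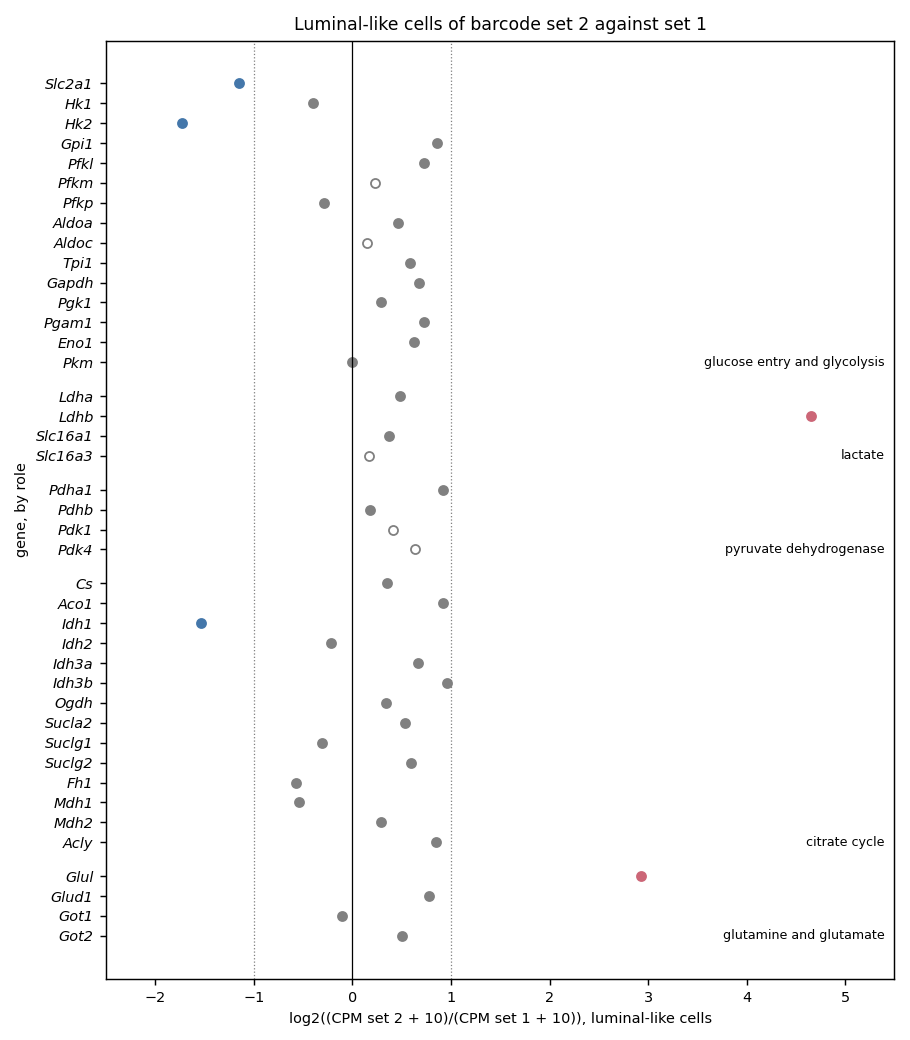
The log2 ratio of set 2 to set 1 in luminal-like cells, with 10 CPM added to both sides, for each of the 41 genes by role. Ldhb (4.65) and Glul (2.93) lie far to the right, Hk2 (-1.73), Idh1 (-1.54) and Slc2a1 (-1.15) to the left, and most other genes between 0 and 1.

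Taken over all luminal-like cells, most other glycolytic genes were somewhat higher in set 2 without reaching the limit. Gapdh was at 799.8 CPM in set 1 and 1281 CPM in set 2, Gpi1 at 154 and 288 CPM, Pgam1 at 263 and 440.4 CPM, and Tpi1 at 272 and 412 CPM. Eno1 was at 65.9 and 107 CPM, Aldoa at 452 and 628 CPM, and Pfkl, the liver form of phosphofructokinase, at 31.7 and 59.1 CPM. Pkm, which makes pyruvate in the last step, was at 498 CPM in each set. Ldha stood at 483 and 676 CPM, and the lactate carrier Slc16a1 at 10.1 and 15.9 CPM. Several of these genes (Gapdh, Eno1, Ldha, Pgk1, Tpi1, Aldoa, Pgam1 and Pkm) have processed pseudogene copies that can share reads with them, so that their levels are less certain.

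Around the citrate cycle, Pdha1, the catalytic subunit of pyruvate dehydrogenase, was at 92.9 CPM in set 1 and 184 CPM in set 2. Its inhibitor kinase Pdk4 was at 0.852 and 6.80 CPM. Idh3b, a subunit of the mitochondrial isocitrate dehydrogenase, was just under the limit with 75.7 and 156 CPM (log2 ratio 0.96), and so was Aco1, the cytosolic aconitase, with 9.99 and 27.7 CPM (0.91). Acly, which splits citrate to supply fatty acid synthesis, was at 51.3 and 100.2 CPM, and Glud1, which turns glutamate into the cycle intermediate oxoglutarate, at 41.6 and 78.2 CPM. Not all genes of the cycle had this direction, since Fh1 was at 84.9 and 53.6 CPM and Suclg1 at 145 and 116 CPM. Of the malate dehydrogenases, the cytosolic Mdh1 was at 482 and 328 CPM and the mitochondrial Mdh2 at 291 and 359 CPM.

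Within set 2, Glul and Ldhb varied across luminal-like clusters. Glul was at 4212 CPM in the Gulo-led, 2774 in the Msmb-led, 2376 in the Defa22-led, 2231 in the Ube2c-led, 2205 in the Wnt6-led, 1581.5 in the Svs5-led and 437 in the Tgm4-led cluster. Ldhb followed with 1137, 921, 407, 499, 529.8, 346 and 144.5 CPM in the same order of clusters. The Gulo-led cells were highest and the Tgm4-led cells lowest for both genes. In set 1, Glul was at 449.5 CPM in the Msmb-led, 209.6 in the Svs5-led and 203 in the Tgm4-led cluster, and Ldhb at 8.08, 11.3 and 20.2 CPM, so that every set 1 value of Ldhb lay below every set 2 value. Idh1 had another pattern, with 59.2 CPM in set 1 and 80.2 CPM in set 2 in the Tgm4-led cluster, against 2.16 to 13.8 CPM in the other 6 clusters of set 2. Got1, the cytosolic aspartate aminotransferase, was also highest in the Tgm4-led cluster in both sets (55.5 and 107 CPM).

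**Figure D3:**
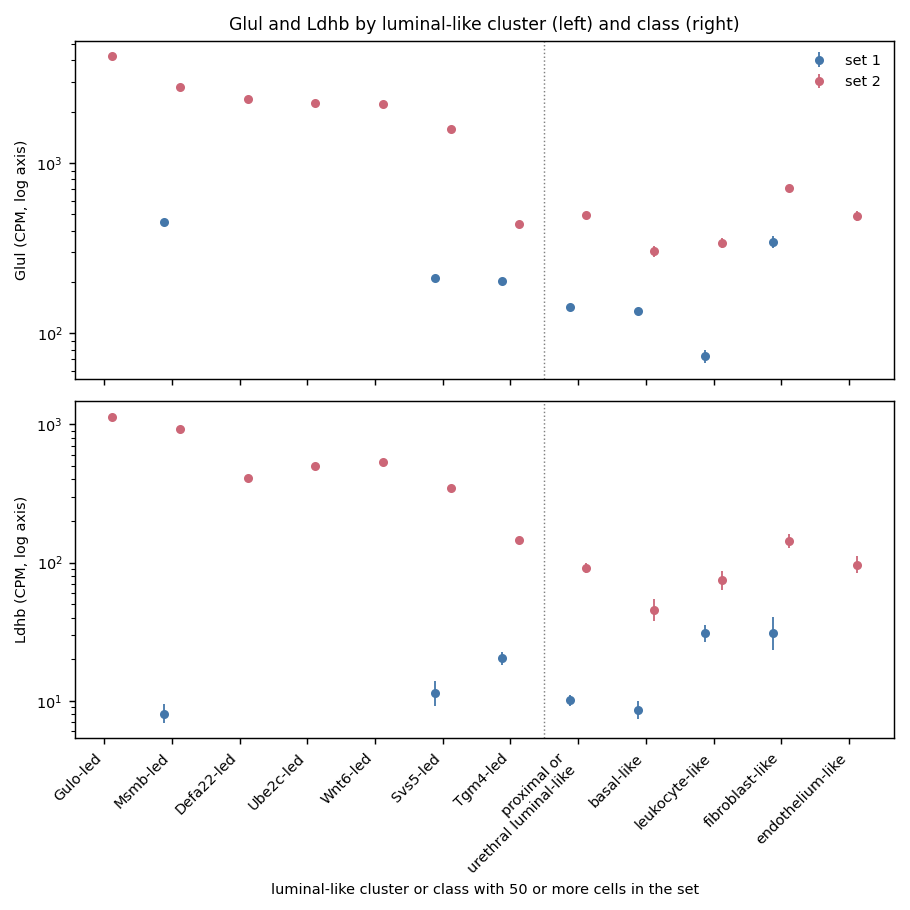
Levels of Glul and Ldhb in CPM on a log axis, by luminal-like cluster (left) and by class (right), for set 1 and set 2, with 95% Poisson intervals for counting error. In set 2 Ldhb runs from 144.5 CPM in the Tgm4-led to 1137 CPM in the Gulo-led cluster, and in set 1 it stays between 8.08 and 20.2 CPM in luminal-like clusters.

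Since the sets held different clusters, the comparison was repeated within the 3 clusters with 50 or more cells on each side. That these clusters hold cells of both sets depends on the integration of the sets. Without it the Svs5-led cluster held 1 cell of set 1 and 1792 of set 2, the Msmb-led cluster 368 and 4, and the clusters with Tgm4 among their leading genes 565 and 22 (led by Chn2) and 3 and 234 (led by Ren1). In the Msmb-led cluster (531 and 179 cells) Ldhb was 114-fold higher in set 2 (97.4 to 134; 8.08 and 921 CPM) and Glul 6.17-fold higher (6.01 to 6.34). Idh3a was 2.997-fold and Pfkl 2.42-fold higher there, and Hk2 4.87-fold lower, which made 5 members called against 9.06% of all genes. The Msmb-led cells of the sets were not alike. Their luminal markers summed to 54695 CPM in set 1 and 14955 CPM in set 2, and their secretory genes to 80749 and 29698 CPM. Seminal vesicle genes summed to 0.198 and 665 CPM, and EGFP was high in 21.5% and 93.9% of the cells. In the Svs5-led cluster (250 and 1686 cells) 12 members were called against 12.2% of all genes (5.21% higher, 7% lower). Its cells were not alike in the sets, since Svs5 had no UMI in any luminal-like cell of set 1 and the seminal vesicle genes summed to 8.59 CPM in this cluster in set 1 and 9019 CPM in set 2. Besides Ldhb (30.5-fold) and Glul (7.54-fold), 8 members were higher, namely Acly (3.15-fold), Ldha (3.06-fold), Eno1 (2.72-fold), Got1 (2.66-fold), Aldoa (2.27-fold), Tpi1 (2.23-fold), Pgam1 (2.18-fold) and Gapdh (2.05-fold). Hk2 (5.37-fold) and Idh1 (3.54-fold) were lower. In the Tgm4-led cluster (589 and 267 cells) Ldhb was 7.14-fold (6.29 to 8.13) and Glul 2.15-fold (2.05 to 2.27) higher in set 2, and these were the 2 members called, against 5.88% of all genes. Hk2 was at 12.8 and 4.60 CPM in the Tgm4-led cluster and was not called.

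EGFP-high luminal-like cells (295 in set 1, 7387 in set 2) gave 6 called members against 14.6% of all genes. Ldhb was 34.1-fold, Glul 9.31-fold, Acly 3.14-fold and Ldha 2.18-fold higher in set 2, and Hk2 was 7.11-fold and Idh1 4.51-fold lower. These EGFP-high groups were of different clusters. In set 1, 51.2% of them were Svs5-led and 38.6% Msmb-led, with 0, 1 and 1 cells of the Defa22-led, Gulo-led and Wnt6-led clusters. In set 2, 99.8%, 99.7% and 99.8% of the cells of those 3 clusters were EGFP-high. EGFP-low cells (under 500 CPM of EGFP in the cell; 1029 and 168 cells) gave 3, against 6.53% of all genes. Ldhb was at 11.99 CPM in set 1 and 105 CPM in set 2, 8.77-fold higher (7.59 to 10.1), Got1 was 2.82-fold higher and Hk2 8.65-fold lower. Glul stood at 333 and 297 CPM in the EGFP-low cells and was not called. These EGFP-low groups differed in clusters. The Tgm4-led cluster held 89.9% of the set 2 cells, whereas the set 1 cells included 389 of the Msmb-led cluster, in which Glul (449.5 CPM) and Hk2 (68.4 CPM) were higher and Got1 (20.5 CPM) lower than in the Tgm4-led cluster of set 1 (203, 12.8 and 55.5 CPM).

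**Figure D4:**
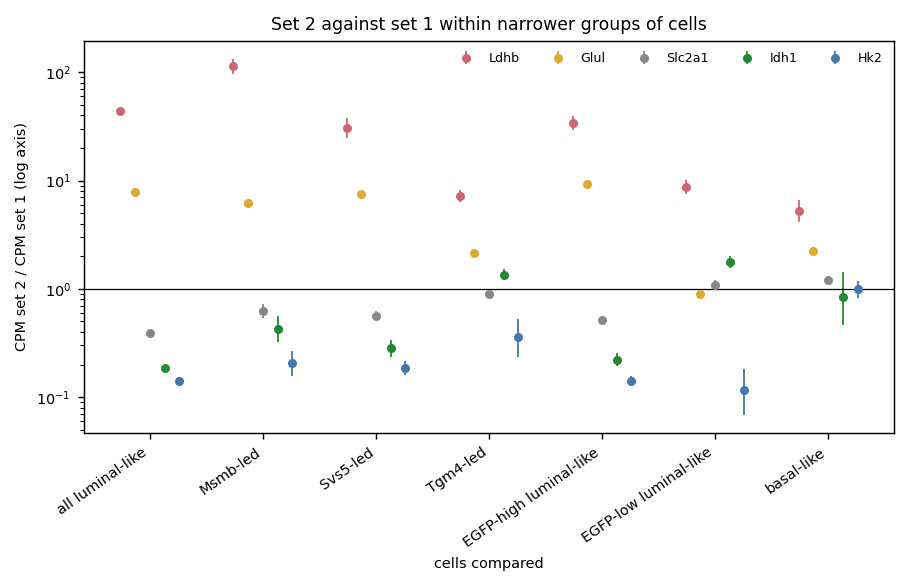
Ratio of CPM in set 2 to set 1 on a log axis for the members called over all luminal-like cells, with 95% intervals for counting error. The groups are all luminal-like cells, single luminal-like clusters, EGFP-high or EGFP-low luminal-like cells, and basal-like cells. Ldhb lies between 7.14 and 114 in every luminal-like group and is lower in basal-like cells. Glul is 2.15 in the Tgm4-led cluster and near 1 in EGFP-low luminal-like cells. Both the EGFP-high and the EGFP-low groups were of different clusters in the sets.

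Detection per cell was compared after each cell was thinned to 3000 UMIs. A Ldhb UMI was found in 3.59% (2.68 to 4.70%) of luminal-like cells of set 1 and 66.6% (65.5 to 67.7%) of set 2, and without thinning in 25.2% and 90.6%. Leukocyte-like cells gave 8.06% and 10.8%. Their clusters differed between the sets. The Rgs1-led and Ccl5-led clusters held 571 and 386 cells in set 1 and 7 and 19 in set 2, and the Lyz2-led cluster 95 and 235. The leukocyte-like Ldhb share was not uniform in set 1, with 14.0% in the Ccl5-led, 6.56% in the Jchain-led, 6.12% in the Rgs1-led and 1.06% in the Lyz2-led cluster. The luminal share of set 1 lay within this range. For Glul the luminal shares were 54.99% and 92.1% (unthinned 95.7% and 98.7%), against 18.8% and 43.4% of leukocyte-like cells. Hk2 was found in 10.98% and 1.80%, and Idh1 in 11.8% and 1.68% of thinned luminal-like cells. Cells under 3000 UMIs were left out, namely 16 and 87 luminal-like and 271 and 30 leukocyte-like cells.

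Other properties moved with the sets. In luminal-like cells the 6 secretory prostate genes summed to 50714 CPM in set 1 and 3923 CPM in set 2, 6 measured seminal vesicle genes to 1.75 and 2427 CPM, and 8 stress genes to 4274 and 8614 CPM. Mitochondrial genes took 4.46% and 5.36% of UMIs. Of 12 leukocyte markers all were detected in both sets, with 4375 CPM in set 1, of which 4072 were Cd74, and 718 CPM in set 2, of which 703 were Cd52. Fibroblast markers summed to 141 and 221 CPM, mostly Dcn, and endothelial markers to 9.004 and 6.75 CPM. The part of these in the differences of the metabolic genes was not tested. The 8 proliferation genes summed to 79.2 and 148 CPM, and leaving out the Ube2c-led proliferating cluster left the same 5 members called. Seminal vesicle genes reached 9019 CPM in the Svs5-led cluster of set 2, whereas in the Tgm4-led cluster they were at 0.2496 and 149.98 CPM.

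Free RNA can give UMIs in cells that do not express a gene, so the luminal transcripts were also followed in other classes of set 2. EGFP and hARtg, which leukocytes should lack, reached 11.2% and 11.02% of the luminal level in leukocyte-like cells of that set. Glul (13.9%) and Ldhb (13.2%) stood in nearly the same ratio to their luminal levels. Fibroblast-like cells gave 29.1% for Glul, 25.4% for Ldhb, 24.6% for EGFP and 24.9% for hARtg, and endothelium-like cells 19.99%, 17.1%, 12.4% and 14.9%.

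In basal-like cells, 2 of the 36 members were called between the sets, against 3.71% of all genes. Ldhb was at 8.59 CPM in set 1 and 45.4 CPM in set 2, 5.29-fold higher (4.17 to 6.68), and Glul at 134 and 302 CPM, 2.25-fold higher (2.08 to 2.44). Leukocyte-like cells stood at 74.5 CPM of Ldhb and 339 CPM of Glul in set 2, above the basal-like cells of that set. After thinning to 3000 UMIs, basal-like cells of set 2 gave a share of 7.10% for Ldhb and 46.4% for Glul, beside 10.8% and 43.4% of leukocyte-like cells. The part of free RNA in these levels was not tested. With every cell given the same weight, 1 of the 2 was called, and in the EGFP-low basal-like cells 0 were called, against 4.2% of all genes. In EGFP-high basal-like cells (439 and 164) 3 were called against 4.28% of all genes, namely Ldhb (15.0-fold), Acly (2.72-fold) and Glul (2.50-fold). Hk2 was at 49.96 and 49.6 CPM, Slc2a1 at 239 and 292 CPM, Pfkp at 83.8 and 57.9 CPM and Idh1 at 6.70 and 5.68 CPM in basal-like cells, differences that did not reach the limit.

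Within each set, cells with high reporter levels were compared with cells of low levels. In set 1, none of the 36 members was called in luminal-like cells (295 EGFP-high against 1029 EGFP-low; 2.42% of all genes) or in basal-like cells (439 against 1201; 1.62% of all genes). Glul was at 268 CPM in EGFP-high and 333 CPM in EGFP-low luminal-like cells of set 1, Ldha at 311 and 552 CPM, Fh1 at 51.1 and 98.4 CPM, and Idh1 at 24.5 and 47.8 CPM. These groups differed in clusters. The Svs5-led cluster held 51.2% of the EGFP-high cells but 52 of the 1029 EGFP-low cells, and the Tgm4-led cluster held 8.81% of the EGFP-high cells. In set 1, Ldha was at 258 CPM in the Svs5-led and 577 CPM in the Tgm4-led cluster. Fh1 was at 35.2 and 105 CPM, Idh1 at 25.2 and 59.2 CPM, and Glul at 209.6 and 203 CPM. Within the Svs5-led cluster of set 1, Idh1 was 2.53-fold lower in EGFP-high cells (1.83 to 3.47) and was the 1 member called, against 0.715% of all genes. Within the Msmb-led cluster of set 1 none was called, against 1.55% of all genes.

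In luminal-like cells of set 2 (7387 EGFP-high against 168 EGFP-low), 11 of the 36 members (30.6%) were called, beside 15.7% of all genes (7.88% higher and 7.77% lower in EGFP-high cells). Glul (2492 against 297 CPM), Slc16a1, Aco1, Ldhb (579 against 105 CPM), Pfkl, Idh3a, Eno1 and Pgam1 were higher in EGFP-high cells, by 2.11-fold to 8.39-fold. Idh1 (5.43 against 85.1 CPM), Got1 (27.2 against 104 CPM) and Slc2a1 (36.6 against 120.2 CPM) were lower, by 15.7-fold, 3.82-fold and 3.29-fold. Of the EGFP-low cells, 151 (89.9%) were in the Tgm4-led cluster, so that this contrast is mainly one between clusters. Within the Tgm4-led cluster (80 against 151 cells), Glul was the 1 member called, against 1.5% of all genes, with 695 CPM in EGFP-high and 270 CPM in EGFP-low cells (2.58-fold, 2.38 to 2.80). In basal-like cells of set 2 (164 against 133) Ldhb was called, with 65.6 against 19.0 CPM (3.45-fold, 2.06 to 6.09) beside 1.04% of all genes, and both levels were below that of leukocyte-like cells. Free RNA can also add EGFP UMIs to a cell. In set 2, 6.41% of leukocyte-like, 13.9% of fibroblast-like and 11.8% of endothelium-like cells were EGFP-high. The part of free RNA in the EGFP contrasts was not tested.

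Luminal-like cells were also compared with basal-like cells of the same set. In set 1, 10 of the 36 members (27.8%) were called, beside 23.1% of all genes. Mdh1, the cytosolic malate dehydrogenase, was at 482 CPM in luminal-like and 99.1 CPM in basal-like cells, 4.87-fold higher (4.66 to 5.09). Got1 was 6.50-fold, Idh1 6.09-fold, Suclg1 3.76-fold, Tpi1 3.55-fold, Fh1 3.54-fold, Acly 2.88-fold and Glul 2.32-fold higher. Pfkp, the platelet form of phosphofructokinase, was at 7.28 CPM in luminal-like and 83.8 CPM in basal-like cells, 11.5-fold lower (10.24 to 12.98), and Slc2a1 was 2.43-fold lower (2.33 to 2.52).

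In set 2, 16 of the 36 members (44.4%) were called between luminal-like and basal-like cells, beside 26.5% of all genes, 13 higher and 3 lower (15.5% and 11% of all genes). Centred on the median gene the split was 8 higher and 4 lower, and with doublets kept it was 5 and 3. Ldhb (12.5-fold) and Glul (8.05-fold) led, followed by Mdh1 (3.39-fold), Pfkl (3.32-fold), Aco1 (3.18-fold), Tpi1 (3.14-fold), Acly (2.60-fold), Fh1 (2.58-fold), Suclg2 (2.50-fold), Pgam1 (2.48-fold), Idh3b (2.42-fold), Suclg1 (2.32-fold) and Ldha (2.14-fold). Pfkp was 14.1-fold (11.8 to 16.8), Hk2 7.99-fold (6.61 to 9.59) and Slc2a1 7.499-fold (6.95 to 8.08) lower. Pdk4, which was not among the tested genes, stood at 44.3 and 47.7 CPM in basal-like cells of the sets, against 0.852 and 6.80 CPM in luminal-like cells. The median UMI count of basal-like cells was 10846 in set 1 and 5479 in set 2.

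Against other classes, luminal-like cells were low in Pfkp in each comparison made. Leukocyte-like cells, which were mostly of different clusters in the sets, had 126 CPM of Pfkp in set 1 and 55.8 CPM in set 2. These levels were 17.4-fold and 13.6-fold above luminal-like cells. Got1 was at 343 and 217 CPM, 10.6-fold and 7.40-fold above them. Both genes were among 9 members called in set 1 (30.5% of all genes) and 12 in set 2 (26.9% of all genes). Fibroblast-like cells had 178 and 145 CPM of Hk2, 4.08-fold and 23.4-fold above luminal-like cells, and 76.8 and 73.7 CPM of Slc16a1, 7.60-fold and 4.63-fold above, with 9 (24.3% of all genes) and 11 members called (18.7% of all genes). Endothelium-like cells of set 2 had Hk1 at 112 CPM, 8.41-fold above luminal-like cells, and Hk2 at 1.52 CPM, with 12 members called beside 28.6% of all genes. Gapdh was lowest in luminal-like cells of set 1, at 799.8 CPM against 878 to 2160 CPM in the other classes with 50 or more cells.

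Isozyme shares set the classes apart on a scale that does not depend on total RNA. They are the UMIs of 1 gene as a share of those of all isozymes for the step, and are compared between classes only, since levels were not scaled by length. Ldhb made up 2.60% (2.40 to 2.82%) of lactate dehydrogenase UMIs in luminal-like cells of set 1 and 45.6% (45.4 to 45.8%) in set 2. In the other classes with 50 or more cells the Ldhb share ran from 2.75% to 6.70% for set 1, and from 12.5% to 16.1% for set 2. In the Msmb-led cluster the Ldhb share was 1.57% in set 1 and 59.7% in set 2, and in the Gulo-led cluster of set 2 it was 60.4%. Pfkp made up 17.0% and 5.91% of phosphofructokinase UMIs in luminal-like cells, and 84.1% and 75.4% in basal-like, 82.7% and 69.7% in leukocyte-like, and 77.8% and 74.3% in fibroblast-like cells.

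Hk2 made up 67.7% of the UMIs of Hk1 and Hk2 in luminal-like cells of set 1 and 31.8% of set 2, whereas basal-like cells gave 65.7% and 63.3%. Endothelium-like cells of set 2 stood at 1.34%. Over all luminal-like cells, the cytosolic forms made up smaller shares in set 2. Idh1 made up 44.996% and 15.3% of Idh1 and Idh2, and Mdh1 62.4% and 47.7% of Mdh1 and Mdh2. Got1 made up 29.1% and 20.2% of Got1 and Got2. For Got1 this did not hold within the Tgm4-led cluster, which held 41.8% of luminal-like cells of set 1 and 3.51% of set 2. There Got1 was at 55.5 and 107 CPM and Got2 at 75.1 and 66.9 CPM. Idh1 was not lower in set 2 in that cluster either, at 59.2 and 80.2 CPM. In basal-like cells Mdh1 made up 25.8% and 25.02%, and in leukocyte-like cells Got1 made up 85.0% and 82.3%.

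**Figure D5:**
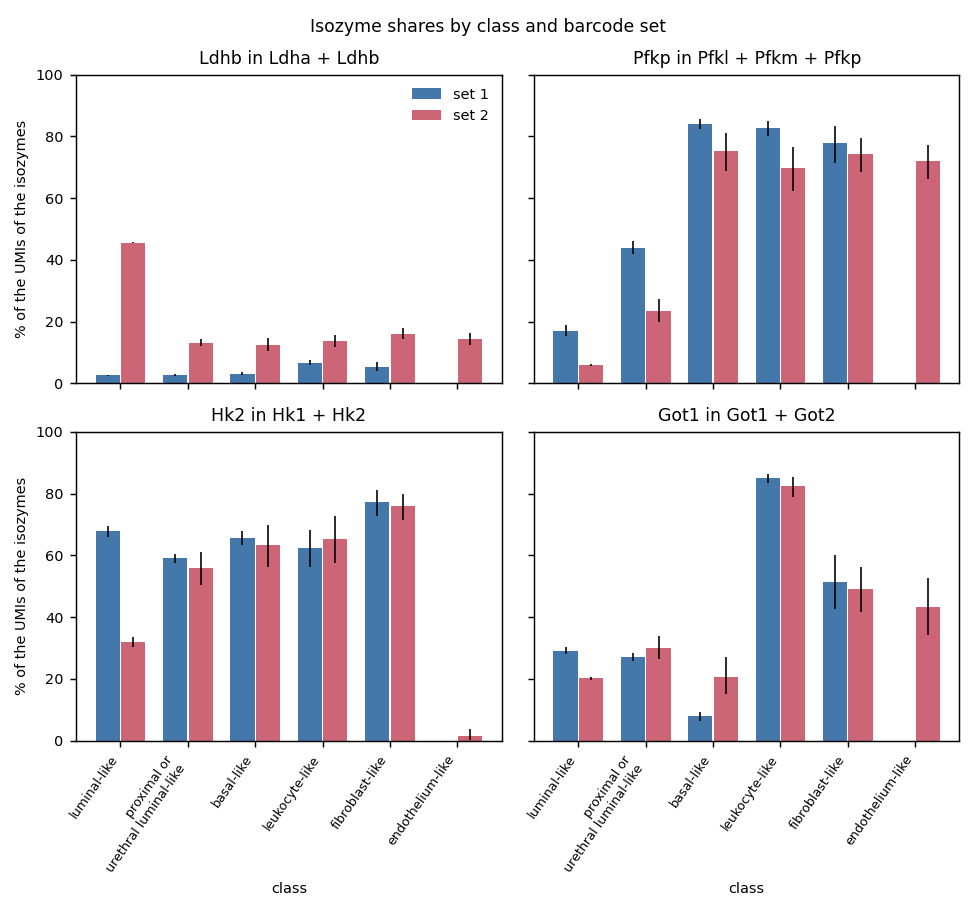
Share of the UMIs of a step that came from 1 isozyme (percent, from 0), by class and barcode set, with 95% Clopper-Pearson intervals. Ldhb reaches 45.6% in luminal-like cells of set 2 and is 16.1% or less in the other classes shown, and Pfkp is 17.0% and 5.91% in luminal-like cells.

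Of 72 other genes of these pathways, 47 passed the filter on low values. Between the sets in luminal-like cells, 7 of these were higher and 3 lower in set 2, beside 5.75% and 8.89% of all tested genes. Their median log2 ratio was 0.05, beside -0.10 over all tested genes. Eno3, the muscle enolase, was at 3.37 CPM in set 1 and 77.3 CPM in set 2 (23.0-fold, 19.6 to 27.1). The fructose bisphosphatases of gluconeogenesis, Fbp2 (8.33-fold) and Fbp1 (4.25-fold), were also higher in set 2. Among glutamine genes, the amino acid transporter Slc38a2 was at 127 and 349 CPM and the mitochondrial serine enzyme Shmt2 3.97-fold higher, while the transporter Slc38a1 was 13.4-fold lower (65.9 and 4.92 CPM). Phgdh, the first enzyme of serine synthesis, was 4.66-fold lower. None of the 18 other pyruvate and citrate cycle genes tested was called, beside 14.6% of all genes. Of 75 respiratory chain and ATP synthase genes tested, 2 were called higher and 0 lower, beside 5.75% and 8.89% of all genes. Their median log2 ratio was 0.09, beside -0.10 over all tested genes.

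Of 7 liver genes that Wnt signalling raises together with Glul, 4 were tested. Slc1a2, Rhbg and Cyp2e1 did not reach 10 CPM over all kept cells. Of the tested genes, 3 were higher in luminal-like cells of set 2, beside 5.75% of all genes. Axin2 and Lgr5 are also among the Wnt target genes that the study reported as raised in tumour luminal cells of these same data. Their place in this count was therefore known beforehand. Axin2 was at 13.7 and 186 CPM (13.6-fold), Tbx3 at 30.8 and 139 CPM (4.52-fold) and Lgr5 at 0.896 and 28.9 CPM (32.2-fold). Oat was at 204 and 186 CPM and was not called. Between the sets, 0 of the 4 were called within the Tgm4-led cluster and in EGFP-low luminal-like cells, beside 5.88% and 6.53% of all genes. In the Msmb-led and in the Svs5-led cluster 3 were called, beside 9.06% and 12.2% of all genes. Of 8 tested hypoxia targets outside glycolysis, Bnip3 (3.42-fold) and Vegfa (2.55-fold) were higher and 0 lower, beside 5.75% and 8.89% of all genes. Their median log2 ratio was 0.58, beside -0.10 over all tested genes.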

How the data were processed

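Single-cell 3′ libraries (10x Genomics, v2 chemistry) of PIN and PCa tissue, dissociated with collagenase and TrypLE, were examined. The authors counted UMIs with Cell Ranger 3.1.0 on mm10 with the mGFP and hARtg sequences added and filtered cells, according to the methods and processing notes. As deposited, each value is a natural log, namely of 1 plus the gene's UMIs scaled to 10000 UMIs in its cell. Whole UMIs were recovered for 100% of the values within a tolerance of 0.001. The features EGFP and ARQ were taken as mGFP and hARtg from their names.

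Doublets were scored with Scrublet in scanpy 1.11.5. The automatic limits called 0 cells. A score limit of 0.25, chosen with the scores in view, left out 155 cells (2.45%) of set 1 and 175 (1.86%) of set 2. Clusters of the other cells came from Seurat 5.3.0 (R 4.3.3) with anchor integration (20 dimensions, 30 principal components, 2000 features, resolution 0.5). A cluster was named from markers when at least 3 were seen in 25% or more of its cells. Clusters led by Sbp and Rgs5 stayed unnamed, and the Krt6a-led cluster, named proximal or urethral, held no marker of that class among its leading genes. Names were rebuilt here and may differ from those of the study. UMIs were summed per class and set. CPM carry exact Poisson, shares Clopper-Pearson and ratios conditional binomial 95% intervals for counting error alone, because the cells of 1 library do not replicate its condition. There are no p-values, and groups under 50 cells entered no comparison. The ratios were tried on simulated sums drawn with counting error alone from the pooled luminal-like profile. That simulation held no differences between cells, libraries or clusters, so it cannot show how far these affect the ratios.

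The members and gene lists were chosen with earlier results of these data known. All 41 members could be named; of the other pathway genes, those with the 5 largest and 5 smallest luminal ratios between the sets and those of the isozyme or pericentral lists could. Bnip3 and Vegfa were named after their values were seen, since they were the only called genes of their list. Alternatives covered doublets, integration, resolution, scaling, pseudocount, filter, threshold, EGFP split, thinning and cell weights. Promoter windows came from RefSeq (GRCm38.p6). 1 gene of the other pathway genes is not reported here.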

Additional observations from a re-analysis of the deposited data

How the results depend on the processing

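No paired analysis was possible because each tissue gave 1 library and no test was made. Under the alternatives, 75 of 97 counts of called members stayed within 1.5 times the main count, and of 456 log2 ratios of members called in a main comparison 76 moved beyond the 95% counting interval of the main value and 0 changed sign. In luminal-like cells of set 2 against set 1 the log2 ratio ran from 4.62 to 5.35 for Ldhb, 2.72 to 3.27 for Glul, -2.63 to -1.54 for Hk2, -2.30 to -1.47 for Idh1 and -1.43 to -1.08 for Slc2a1 over 10 alternatives. At 1.5-fold, the luminal count between the sets was 17 and the basal count 6, the counts of EGFP-high against EGFP-low cells were 6 (luminal, set 1), 21 (luminal, set 2), 2 (basal, set 1) and 2 (basal, set 2), and those of luminal-like against basal-like cells were 17 and 27. With doublets kept, 4 members were called in basal-like cells between the sets, 2 by EGFP in basal-like cells of set 2 and 8 between luminal-like and basal-like cells of set 2. With every cell weighing the same, basal counts were 1 between the sets and 0 by EGFP in set 2. With a pseudocount of 1 CPM, 4 members were called in basal-like cells between the sets, 1 by EGFP in luminal-like cells of set 1 and 1 in basal-like cells of set 1. In analyses added after the data were seen, the luminal count between the sets was 12 in the Svs5-led and 2 in the Tgm4-led cluster and 3 in EGFP-low cells, the basal count was 0 in EGFP-low cells, and the counts by EGFP were 1 in the Svs5-led cluster of set 1 and 1 in the Tgm4-led cluster of set 2. Beyond the change of threshold and of cells, the cause was not tested. Of 30 shares of cells with a UMI, 29 moved when 6000 in place of 3000 UMIs were kept. Too few cells were left to split luminal-like cells of set 1 by EGFP without integration (43 against 875 cells), or set 2 by 5 or more against 0 EGFP UMIs (7471 against 12 luminal-like, 183 against 22 basal-like). Depth was low in leukocyte-like cells of set 1 (median 3819 UMIs) and in fibroblast-like (4525) and basal-like cells (5479) of set 2.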

Other observations

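Cells that resembled proximal or urethral luminal epithelium and an unnamed cluster led by Sbp, a secretory prostate gene, entered no comparison of the sets by class. In the proximal or urethral luminal-like cells (1413 in set 1, 272 in set 2), Glul was at 142 and 496 CPM, Ldhb at 10.1 and 91.7 CPM and Hk2 at 51.9 and 34.2 CPM. The lactate exporter Slc16a3 was at 1.10 and 12.7 CPM, and made up 10.5% and 46.4% of the UMIs of Slc16a1 and Slc16a3. EGFP was high in 6.51% and 90.1% of these cells. In the Sbp-led cluster (297 and 96 cells), Glul was at 336 and 560.1 CPM, Ldhb at 19.8 and 112 CPM, Hk2 at 119 and 65.0 CPM, and Slc2a1 at 244 and 167 CPM. The 6 secretory genes took 8850.2 and 208439 CPM there, which leaves a smaller part of the total for other genes in set 2.

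Of 75 respiratory chain and ATP synthase genes tested, 25 were called higher in luminal-like than in basal-like cells of set 1 and 29 in set 2, and 0 were called lower. Of all genes, 23.1% and 26.5% were called in either direction, and in set 2 15.5% were called higher. The median log2 ratio of the list was 0.76 and 0.85, beside 0.09 over all tested genes in each set.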
